A study of Drosophila melanogaster with 3 samples.

Results

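Peaks at noncoding-only promoters are ChIP-seq peaks of the GFP-tagged protein CG15601 whose summit lay within 500 bp of an annotated start of a noncoding gene and farther than 500 bp from every start of a protein-coding transcript. Genes for tRNA, snRNA and snoRNA were not counted as noncoding genes here. The rule was applied to the authors' list called on the pooled replicates, and it chose 745 of 30000 peaks (2.48%). These 745 peaks lay at 594 genes, since 455 genes had 1 such peak, 127 had 2 and 12 had 3.

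The study mapped where CG15601 sits on chromatin in Drosophila melanogaster embryos, using an antibody to GFP. The embryos were whole, of mixed sex and 0 to 14 h old, and came from a transgenic line that carries CG15601 with GFP fused to its C-terminal end, so the peaks mix all cell types of the embryo. The 3 samples were labelled biological replicates 1, 2 and 3 of 1 group, and no untagged embryos were among them. The chromatin was sonicated to fragments of 200 to 800 bp, and the peaks were called against a shared control.

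The authors' signal value per peak ranks peaks within a list (rank 1 is the strongest) and is not scaled between lists. They also deposited a shorter list that passed a threshold on the irreproducible discovery rate (IDR), a score of how far peak ranks repeat from replicate to replicate. That list held the pooled peaks down to rank 6458, or a signal of 181.9, so IDR membership and pooled rank are the same measure here. No file gives reads per peak, so depth is unknown.

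Long noncoding RNAs (lncRNAs) and antisense RNAs of the fly are transcribed by RNA polymerase II from promoters of their own. Many of them start between coding genes, or inside a coding gene and on the opposite strand. MicroRNAs are cut from hairpins within longer transcripts, so the annotated 5′ end of a microRNA entry is the end of a hairpin or of the mature RNA and not a transcription start.

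The sequences under 6 of the 7 strongest summits are shown so that a reader can see the DNA there; they lie at 5 lncRNAs and an antisense RNA, and the summit at lncRNA:CR44339 is not shown. Each window spans 101 bp of the dm6 assembly, centred on the summit and read 5′ to 3′ along the strand of the noncoding gene, from the RefSeq copy of genome release 6. Capitals mark a match on either strand to any of 12 short words known as sites of fly transcription factors or insulator factors. The words were DRE (TATCGATA), BEAF-32 (CGATA, which also lies inside DRE), M1BP (GGTCACAC), CTCF (AGNNGGCGC), TAGteam (CAGGTAG), the GAGA element (GAGAG), Forkhead (TAAACA), the TATA box (TATAAA), homeodomain (TAATTA), Pho (GCCAT), the GATA factor site (AGATAA) and initiator (TCAGTT). The windows are chr2L:14024040-14024140 (minus strand), chr3R:29214393-29214493, chr3R:17700538-17700638, chr3R:13466359-13466459, chrX:15298401-15298501 (minus strand) and chr3R:11780270-11780370, in this order, and those with no strand given are on the plus strand.
lncRNA:CR31840: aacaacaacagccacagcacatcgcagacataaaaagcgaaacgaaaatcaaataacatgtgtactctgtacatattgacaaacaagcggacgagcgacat
lncRNA:CR31044: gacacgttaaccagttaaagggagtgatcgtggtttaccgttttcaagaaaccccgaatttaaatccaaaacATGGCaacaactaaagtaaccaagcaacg
lncRNA:CR46036: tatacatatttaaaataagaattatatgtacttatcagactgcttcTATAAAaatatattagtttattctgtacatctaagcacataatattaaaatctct
lncRNA:CR45914: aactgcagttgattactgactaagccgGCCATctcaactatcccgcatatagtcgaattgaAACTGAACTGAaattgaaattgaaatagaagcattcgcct
asRNA:CR44429: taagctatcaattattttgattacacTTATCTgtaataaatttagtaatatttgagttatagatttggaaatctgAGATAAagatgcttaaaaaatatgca
lncRNA:CR45595: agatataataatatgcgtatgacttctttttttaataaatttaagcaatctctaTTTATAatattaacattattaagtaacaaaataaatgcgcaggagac
The window of lncRNA:CR31840 held none of the 12 words. Those of lncRNA:CR46036 and lncRNA:CR45595 held a TATA word, lncRNA:CR31044 a Pho word, lncRNA:CR45914 a Pho word and overlapping initiator words, and asRNA:CR44429 a GATA word on each strand. None of these 6 windows held DRE, BEAF-32 or M1BP words.

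The next windows are at noncoding genes with a known role and at the members that carried the promoter words M1BP and DRE at the highest rank. Hsromega makes an RNA induced by heat shock, and roX2 is an RNA of the dosage compensation complex that acts on the male X chromosome. The gene flam (flamenco) is the main source of piRNAs against transposons in ovarian follicle cells. CR43158 is a pseudogene and asRNA:CR45806 an antisense RNA. The windows are chr3R:21296221-21296321, chrX:11578974-11579074, chrX:21631619-21631719, chr2L:20638622-20638722 and chr3L:174603-174703, all on the plus strand.
lncRNA:Hsromega: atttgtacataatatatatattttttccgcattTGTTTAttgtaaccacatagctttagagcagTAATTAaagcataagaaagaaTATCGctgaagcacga
lncRNA:roX2: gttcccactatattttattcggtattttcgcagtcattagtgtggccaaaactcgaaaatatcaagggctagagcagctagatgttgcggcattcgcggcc
lncRNA:flam: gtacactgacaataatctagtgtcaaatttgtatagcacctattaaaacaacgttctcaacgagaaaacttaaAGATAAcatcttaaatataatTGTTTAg
CR43158: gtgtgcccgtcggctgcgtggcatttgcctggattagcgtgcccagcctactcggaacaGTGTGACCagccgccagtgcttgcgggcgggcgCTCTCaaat
asRNA:CR45806: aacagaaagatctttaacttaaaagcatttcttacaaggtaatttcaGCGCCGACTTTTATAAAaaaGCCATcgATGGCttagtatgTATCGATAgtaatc
Hsromega carried BEAF-32, Forkhead and homeodomain words, flam carried Forkhead and GATA words, and roX2 carried none. CR43158 was the only IDR member with an M1BP word. The window of asRNA:CR45806, ranked 6715 and so just outside the IDR list, held DRE, BEAF-32, CTCF, TATA and Pho words.

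In their share of IDR peaks, noncoding-only promoter peaks were close to the pooled list as a whole, below coding promoters and above peaks away from every start. Of the 745 members, 154 (20.7%, exact 95% binomial interval 17.8 to 23.8) were in the IDR list, beside 21.5% of all pooled peaks. At coding promoters, meaning summits within 500 bp of a protein-coding start, 3092 of 8322 peaks (37.2%, 36.1 to 38.2) were IDR peaks. Away from every start the count was 3191 of 20766 (15.4%, 14.9 to 15.9). The member interval includes the share of all peaks and lies apart from both other classes. These intervals, and all others given here, cover counting error over peaks only.

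**Figure D1:**
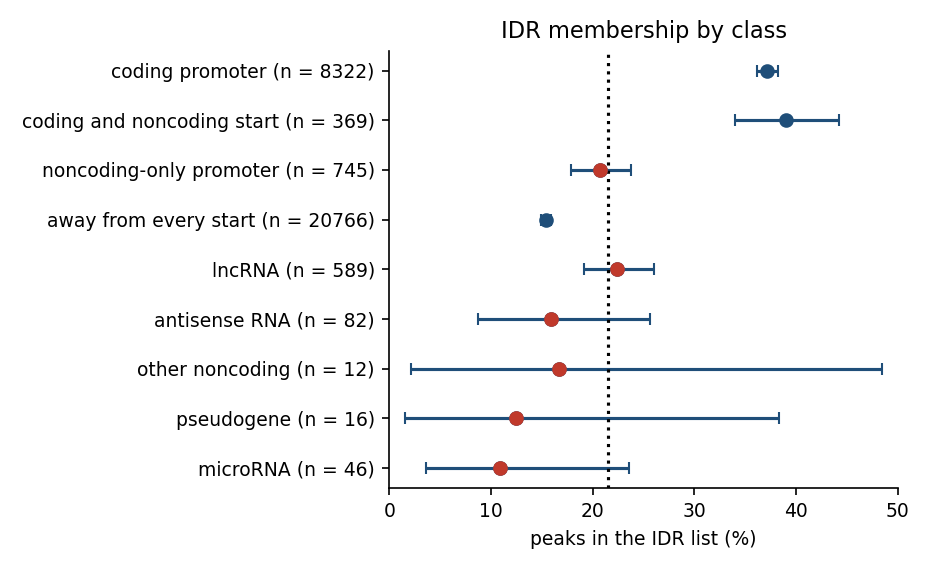
Share of pooled peaks in the IDR list (%, x axis) for classes of promoter (y axis), with exact 95% binomial intervals; red points are noncoding-only promoters and their gene classes, blue points are comparison classes, and the dotted line is the 21.5% of all pooled peaks. The 745 noncoding-only peaks sit at 20.7%, below coding promoters at 37.2% and above peaks away from every start at 15.4%.

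The pooled signal of the members had a median of 78.4, against 83.7 over all peaks, 132.9 at coding promoters and 74.2 away from every start. Member ranks ran from 36 to 29987. Members made up 3 of the strongest 100 peaks, 28 of the strongest 1000 (2.80%) and 154 of the 6458 IDR peaks (2.38%), against 2.48% of the whole list. Their share was thus about the same at each of these depths of the ranking.

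**Figure D2:**
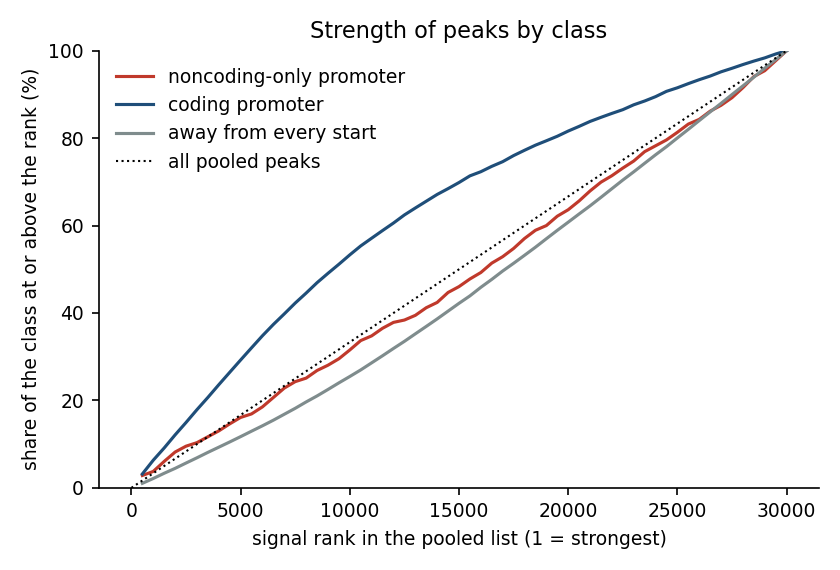
Cumulative share of each class (%, y axis) at or above a signal rank in the pooled list (x axis, 1 is the strongest), for noncoding-only promoters, coding promoters and peaks away from every start; the dotted line is the whole list. Among the stronger peaks the noncoding-only curve runs close to the dotted line. Farther down it lies mostly between that line and the curve of peaks away from every start. It stays below the coding promoter curve.

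A coding start beside the noncoding start went with a higher share. Of 369 peaks within 500 bp of both a coding and a noncoding start, 144 (39.0%, 34.0 to 44.2) were IDR peaks, close to the 37.1% (2948 of 7953) of coding promoters with no noncoding start nearby. Members more than 1000 bp from any coding start still had 137 IDR peaks among 645 (21.2%).

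The order of the classes was the same in the peak list of each replicate, classified on its own summits, where a strong peak is one of the strongest 6458 of 30000 (21.5%). The lists of replicates 1, 2 and 3 held 778, 716 and 719 noncoding-only promoter peaks. Strong peaks were 22.0, 23.5 and 19.8% of them (21.7% ± 1.87, SD, n = 3), against 38.5, 34.7 and 37.9% at coding promoters (37.0% ± 2.05). Away from every start they were 16.1, 15.6 and 14.4% (15.4% ± 0.881). The ranges of the 3 classes did not overlap.

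Coding promoters exceeded noncoding-only promoters by 16.5, 11.2 and 18.1 percentage points (15.3 ± 3.62). An exact two-sided sign-flip permutation test over the n = 3 replicates gave p = 0.25, the smallest it can give. Noncoding-only promoters exceeded peaks away from every start by 5.86, 7.84 and 5.35 points (6.35 ± 1.32, exact permutation p = 0.25, again the smallest possible). The list of replicate 1 differed in its makeup, with 7051 coding promoter peaks against 9010 and 8948 in the lists of replicates 2 and 3. Without replicate 1 the differences were 14.7 and 6.60 points, and both kept their sign in each replicate alone.

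Members recurred between replicates about as often as other peaks. A peak in each of the 3 lists that overlapped the member by at least 50% of both lengths was found for 263 of 745 members (35.3%), against 36.7% of all pooled peaks and 47.0% of coding promoter peaks. A match in 2 lists was found for 263 members, in 1 list for 172 and in none for 47. By replicate, 59.9, 69.4 and 70.3% of members had a match. Replicate 1 was the lowest, as it was for all pooled peaks at 59.5% beside 71.2 and 70.8%.

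Among the 154 IDR members, 112 (72.7%) were matched in all 3 lists, beside 68.8% of all IDR peaks. With any overlap of 1 bp or more, 147 of the 154 (95.5%) had a peak in every list, against 92.9% of all IDR peaks and 97.0% of those away from every start. The other 7 lacked one in 1 list each, namely mir-ban, CR31032, lncRNA:CR44145, lncRNA:CR46110, CR43158, lncRNA:CR44714 and lncRNA:CR43648, named after their values were seen. Their pooled ranks ran from 3281 to 6394, so none was among the strongest members.

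The strongest member peak was at lncRNA:CR31840 (FBgn0051840), a lncRNA on the left arm of chromosome 2, with its summit 9 bp inside the gene and 2911 bp from the nearest coding start, that of hll. It ranked 36 in the pooled list and overlapped peaks of rank 27, 22 and 64 in replicates 1, 2 and 3. Its interval, chr2L:14023852-14024804, was 953 bp wide against a median of 430 bp, and it overlapped the replicate 3 peak by less than 50% of both lengths. A second summit in the same interval ranked 3206. A neighbouring lncRNA, lncRNA:CR45352, carried a summit 1753 bp away at rank 246 (188, 286 and 285 in the replicates).

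The other members among the strongest 100 were at lncRNA:CR44339 and lncRNA:CR31044. At lncRNA:CR44339 (FBgn0265427), the peak, whose nearest coding start 4212 bp away is that of the Polycomb group gene Psc, ranked 53 in the pooled list and 47, 40 and 75 in the replicates. The peak at lncRNA:CR31044 (FBgn0051044) lay 119 bp upstream of the start and 5729 bp from eEF1gamma, a translation elongation factor gene, at rank 85 (81, 89 and 90). Both stood within the strongest 100 peaks of every replicate, as did lncRNA:CR31840.

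Among members over 5000 bp from a coding start, the strongest after lncRNA:CR31044 were at lncRNA:CR46036 and lncRNA:CR45914. The peak at lncRNA:CR46036 ranked 142 (148, 111 and 198 in the replicates) and lay in an intron of osa, on the opposite strand, where osa encodes a subunit of the Brahma chromatin remodelling complex. That at lncRNA:CR45914, between genes and 15819 bp from the start of side-IV, ranked 207 (579, 309 and 115). Its replicate ranks spread more widely than those of lncRNA:CR46036. The peak at lncRNA:CR45588, 70 bp upstream of its start and 32904 bp from the start of corto, ranked 327 (561, 219 and 376).

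The peak at asRNA:CR44429, in an intron of the juvenile hormone receptor gene gce and 558 bp from its start, was the strongest at an antisense RNA, with rank 210 (206, 235 and 227). In LpR2, a lipophorin receptor gene, lncRNA:CR46102 had a peak of rank 265 (221, 323 and 265) in an intron. Near nej, lncRNA:CR42657 had a peak that ranked 469 (539, 444 and 509) and was 689 bp from the start of nej, the gene of the histone acetyltransferase CBP. The replicates placed each of these within a narrow span of ranks.

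The peak at lncRNA:CR45595, 1192 bp from l(3)neo38, ranked 219 (138, 273 and 299). In an intron of beat-Ib, the lncRNAs CR44868 and CR44867 had summits of rank 258 and 344, which lay 988 bp apart. The remaining members of the strongest 20 were at lncRNA:CR44380, lncRNA:CR44676, mir-9378, lncRNA:CR43626, lncRNA:CR44810, Uhg4 and lncRNA:CR44917, with ranks from 306 to 479. Over all 20, the overlapping peaks of the replicates ranked between 22 and 915, and 18 were matched in all 3 lists by the 50% rule. Of the 20, 15 summits lay upstream of the noncoding start and 14 lay outside coding genes. Over all 745 members 55.7% lay upstream and 65.9% outside coding genes.

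Genes with 3 member peaks were few, at 12, while 127 genes had 2. lncRNA:CR43626 was the only gene with 3 IDR members, at ranks 362, 1199 and 4403, of which the summits at 362 and 1199 share an interval. At lncRNA:CR44276, 1 of 3 members was an IDR peak, at rank 659. At mir-9377 it was also 1 of 3, at rank 1297. In all, 16 of the 154 IDR members (10.4%) had an IDR member of another noncoding gene within 5000 bp. IDR peaks at coding promoters, away from starts or at the same gene were not counted here. No matching share over all IDR peaks is given, so the 10.4% has no background beside it.

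Of 20 lncRNA names on the list of known noncoding RNAs, 13 were in the annotation, 7 had a member peak and 3 had an IDR member. Among all noncoding genes with a start away from coding starts, 5.70% had an IDR member. Hsromega ranked 1195 in the pooled list and 980, 1216 and 1588 in the replicates, with its summit 144 bp inside the gene. roX2 ranked 4370 (8229, 3936 and 4384), with its summit 41 bp upstream of the start. The lncRNA yar, which lies between the genes yellow and achaete and is known for a role in sleep, ranked 5996 (6247, 6084 and 7456). Hsromega was the strongest of these in every replicate.

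The second dosage compensation RNA, roX1, had a member peak at rank 10337 (overlapping peaks at 11511, 8618 and 14630), outside the IDR list. iab8, a noncoding RNA of the bithorax complex, reached rank 15292, acal 17275 and let7C, the host transcript of let-7, 22629. No member peak was assigned to bxd, CRG, TS14, cherub, noe or sphinx. At flam, the strongest of 3 member summits ranked 1956 and overlapped peaks of rank 1955, 1664 and 2494, none by 50% of both lengths. Its interval was under the median width, at chrX:21631602-21631768.

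Of 8 listed structural and snoRNA host genes with a start farther than 500 bp from coding starts, 5 had a member peak. Among all noncoding genes with such a start, 22.6% had a member peak. RNaseMRP:RNA, the catalytic RNA of a ribonuclease that processes ribosomal RNA, had an IDR member at rank 4064. Its overlapping peaks ranked 9822, 3291 and 3077, so replicate 1 stood lower than replicates 2 and 3. The genes for RNase P RNA and the 7SL RNAs of the signal recognition particle had no member peak. Of the 7 Uhg genes, which carry snoRNAs in their introns, 4 had a start farther than 500 bp from coding starts and all 4 had a member peak, but only that of Uhg4 was an IDR peak. It ranked 474 (841, 466 and 358) and lay 535 bp from the start of Boot, close to the limit of the rule.

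At lncRNA genes, 132 of 589 peaks were IDR peaks (22.4%, 19.1 to 26.0), at antisense RNA genes 13 of 82 (15.9%, 8.72 to 25.6) and at microRNA entries 5 of 46 (10.9%, 3.62 to 23.6). The ncRNA biotype as a whole had 152 of 729 (20.9%) and pseudogenes had 2 of 16 (12.5%, 1.55 to 38.4). No member belonged to another biotype. All these intervals overlap. The IDR shares of peaks in the pooled list therefore did not separate the classes of noncoding gene, and the smaller classes held few peaks.

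In the replicate lists, strong peaks were 23.4, 24.4 and 21.4% of lncRNA peaks (23.1% ± 1.53) and 16.2, 23.1 and 14.9% of antisense RNA peaks (18.1% ± 4.39). At microRNA entries they were 16.7, 16.7 and 11.8% (15.0% ± 2.83), on 48, 36 and 51 peaks, a range that lies below that of lncRNA peaks, while the antisense RNA range overlaps it. The lncRNA share was higher than that of antisense RNA by 7.22, 1.35 and 6.54 points, with p = 0.25 in the exact sign-flip permutation test, the smallest it can give. The ncRNA biotype exceeded pseudogenes by 22.3, 12.7 and 2.18 points (12.4 ± 10.1, exact permutation p = 0.25), on 10 to 18 pseudogene peaks per list. In the pooled list this difference turned to -0.763 points when the window around the start was widened to 1000 bp, so its direction rests on the window.

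After asRNA:CR44429, the strongest antisense RNA peaks were at asRNA:CR43469 beside bic, rank 1058, and asRNA:CR46145 in an intron of the tyrosine kinase gene FER, rank 1150. The microRNA entries in the IDR list were mir-9378 (rank 340), mir-9377 (1297), mir-4962 (2069), mir-ban (3281) and mir-14 (4940). The entries mir-9378, mir-9377 and mir-4962 lie on the same strand inside introns of CG17124, Tis11 and Tlk. The hairpins of bantam, a microRNA that promotes growth, and of mir-14, which limits cell death, lie outside coding genes. The pseudogene peaks in the IDR list were at CR31032 (rank 3612) and CR43158 (rank 5807), and each lacked an overlapping peak in 1 replicate.

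Counted by gene, peaks at noncoding starts were uncommon. Of 3142 noncoding genes, 2615 had a start farther than 500 bp from every coding start. At 149 of these (5.70%, 4.84 to 6.66) an IDR member had its summit within 500 bp of such a start. Any IDR summit within 500 bp of a start was found at 23.0% of all annotated genes and 26.7% of 13945 protein-coding genes. The noncoding count left out IDR peaks within 500 bp of a coding start, so the measures are unlike. None was adjusted for the number of starts per gene. With any pooled member the noncoding share was 22.6%, while 47.9% of protein-coding genes had any pooled peak. The share with an IDR member was 7.50% for lncRNA genes (127 of 1694, 6.29 to 8.86) and 3.96% for antisense RNA genes (13 of 328, 2.13 to 6.68). For microRNA genes it was 2.16% (5 of 232, 0.703 to 4.96) and for pseudogenes 0.893% (2 of 224, 0.108 to 3.19). The lncRNA interval lay above those of microRNA genes and pseudogenes and overlapped that of antisense RNA genes. Strong peaks of the replicate lists stood at 6.35, 6.08 and 5.05% of the noncoding genes. Whether the other genes are transcribed in these embryos was not measured.

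In the pooled list the IDR share of members was 17.0% (17 of 100) at 500 to 1000 bp from the nearest coding start, 21.7% (36 of 166) at 1000 to 2000 bp, 20.3% (47 of 231) at 2000 to 5000 bp and 21.8% (54 of 248) beyond. Peaks away from every start had 19.6, 16.8, 15.1 and 13.7% at the same distances. In the pooled list the values fell with distance for peaks away from every start and showed no steady fall for members. From the nearest to the farthest distance the members went from 23.5 to 20%, from 24.6 to 24.7% and from 20 to 23.0% in replicates 1, 2 and 3, with lower values between in replicates 2 and 3. Whether the trends of the classes differ was not tested.

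Beyond 5000 bp, strong peaks were 20, 24.7 and 23.0% of noncoding-only peaks in the replicates, against 13.8, 14.7 and 13.2% of those away from every start. This is a difference of 8.65 ± 2.11 points (exact sign-flip permutation p = 0.25, n = 3, the smallest possible). At 1000 to 2000 bp the difference was 5.10 ± 2.00 points and at 2000 to 5000 bp 5.47 ± 1.51 points, positive in each replicate. At 500 to 1000 bp the difference was 3.77 ± 2.78 points in the replicates, positive in each, while in the pooled list it had the opposite sign. At that distance the sign therefore depends on which list is used.

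**Figure D3:**
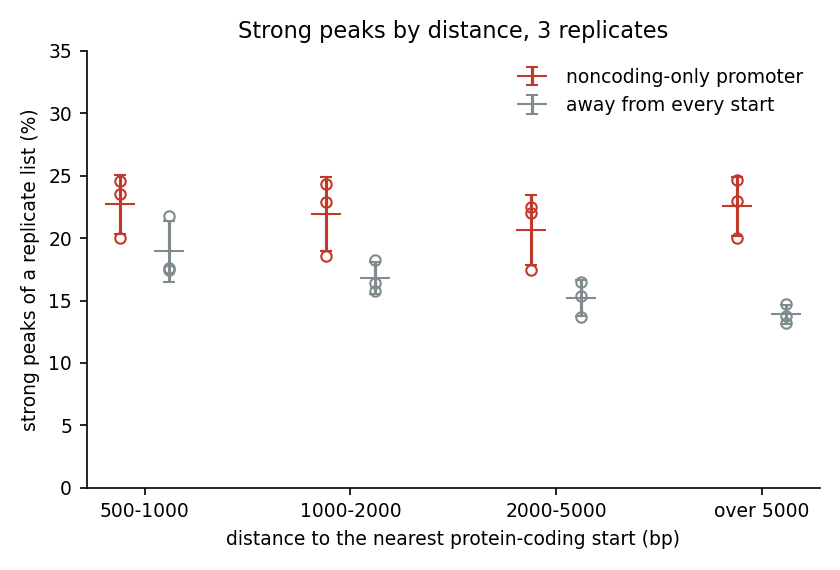
Share of peaks among the strongest 6458 of each replicate list (%, y axis) by distance to the nearest protein-coding start (bp, x axis), for noncoding-only promoters and peaks away from every start; open circles are the 3 replicates, bars their mean ± SD. Beyond 5000 bp the noncoding-only circles lie at 20 to 24.7% and the others at 13.2 to 14.7%.

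Summits were spread more evenly around noncoding starts than around coding starts. Distances were to the nearest transcript start and were not adjusted for the number of starts per gene. Members include 46 peaks at microRNA entries, whose annotated 5′ ends are not transcription starts. Within 100 bp of the start lay 21.5% of member summits, and 18.9% lay between 400 and 500 bp, against 42.5 and 7.40% at coding promoters. The IDR share of members was 25.0% within 100 bp and 19.9% at 400 to 500 bp, while at coding promoters it fell from 40.4 to 26.1%. Upstream of the start lay 415 of 745 members (55.7%, median offset -51 bp), and 94 of 154 IDR members (61.0%, median -70.5 bp). Of IDR peaks at coding promoters, 79.4% lay upstream, with a median of -94 bp.

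**Figure D4:**
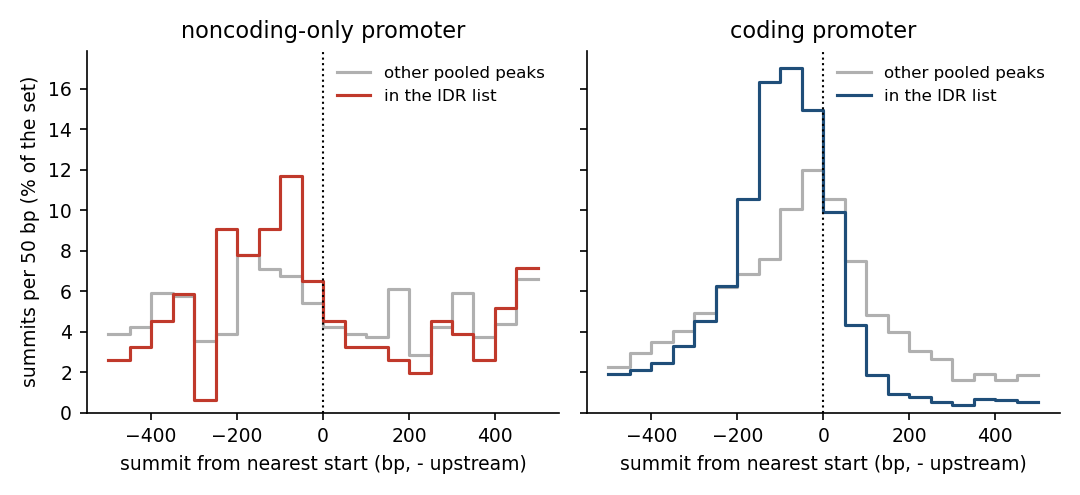
Position of summits relative to the nearest start (bp along the gene, x axis, negative is upstream) in steps of 50 bp, as a share of the set (%, y axis), for noncoding-only promoters (left) and coding promoters (right); coloured lines are IDR peaks and grey lines the other pooled peaks. Coding promoter IDR peaks pile up just upstream of the start, while noncoding-only summits spread over the whole window.

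Most members lay between coding genes. Outside coding genes were 491 members, of which 104 (21.2%) were IDR peaks. Another 173 lay inside a coding gene on the opposite strand to the noncoding gene, 145 of them in introns, with 37 IDR peaks (21.4%). On the same strand were 77, with 13 IDR peaks (16.9%, 9.31 to 27.1), and 4 had coding genes on both strands, with no IDR peak. No member interval covered a coding start, and 10 overlapped a peak whose summit was at a coding promoter.

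The left arm of chromosome 2 carried 26.4% of members against 19.4% of all pooled peaks, and the X chromosome 13.3 against 18.2%. The IDR share of members was 20.3% on 2L, 29.2% on 2R (20.8 to 38.9), 18.9% on 3L, 17.9% on 3R and 21.2% on X. Over all pooled peaks of these arms it was 21.9, 23.2, 20.5, 23.3 and 19.2%, each within the members' interval for that arm. Chromosome 4 had 6 members and no IDR peak among them, where 11.2% of its pooled peaks were IDR peaks. The intervals of the 5 large arms overlap.

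The BEAF-32 and DRE words were less frequent in IDR members than at IDR coding promoters. DRE, the site of the factor DREF, was in 0 of 154 IDR members, which allows a share of up to 1.95%. It was in 4.85% of IDR coding promoters, 0.157% of IDR peaks away from every start and 2.40% of all IDR peaks. The M1BP word was in 1 of 154 (0.649%, 0.0164 to 3.56), against 3.20, 0.157 and 1.63% in the same order. The BEAF-32 word was in 10.4% (6.06 to 16.3), against 25.0% at IDR coding promoters (23.5 to 26.6) and 10.8% away from every start. For these words the IDR members stood nearer to IDR peaks away from every start than to IDR coding promoters. The M1BP interval, however, includes the coding promoter share. Over all 745 members DRE was in 0.805% (0.296 to 1.74), against 3.54% of all coding promoter peaks and 0.226% away from every start. Its interval lies between these shares, and its 6 members were all outside the IDR list. M1BP was in 0.134% (0.0034 to 0.746), against 2.70 and 0.188%, and BEAF-32 in 11.7% (9.46 to 14.2), against 21.1 and 10.9%.

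The GATA word was in 11.0% of IDR members, 6.95% of IDR coding promoters and 9.43% of IDR peaks away from every start, with overlapping member intervals. The Forkhead word was in 10.4% of IDR members (6.06 to 16.3), below the 18.6% away from every start (17.2 to 19.9), and the interval includes the 15.8% of coding promoters. Over all 745 members it was in 9.93% (7.88 to 12.3), against 14.0% of all coding promoter peaks and 13.5% of all peaks away from every start, both above the interval. TATA was in 18.8%, GAGA in 12.3%, Pho in 11.0%, homeodomain in 9.74%, initiator in 7.14% and CTCF in 1.95% of IDR members, each with an interval that includes the share at IDR coding promoters. Over all IDR peaks the same words were in 21.9, 9.74, 13.4, 10.02, 6.80 and 1.66%, in this order. Among all 745 members TATA was in 13.8% (11.4 to 16.5). It was in 17.3% of all coding promoter peaks and 17.6% of all peaks away from every start, both above that interval. GATA was in 9.13% of all members (7.16 to 11.4), above the 6.42% of coding promoter peaks, and the interval includes the 7.48% away from every start. For GAGA, Pho, homeodomain, initiator and CTCF the interval over all members included both shares. TAGteam, the site of Zelda, was in 0 of the 154, which allows a share of up to 1.95%, and in 0.496% of all IDR peaks, so no difference was detectable. These are matches of letters, and all 12 words were counted on both strands within 50 bp of the summit.

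**Figure D5:**
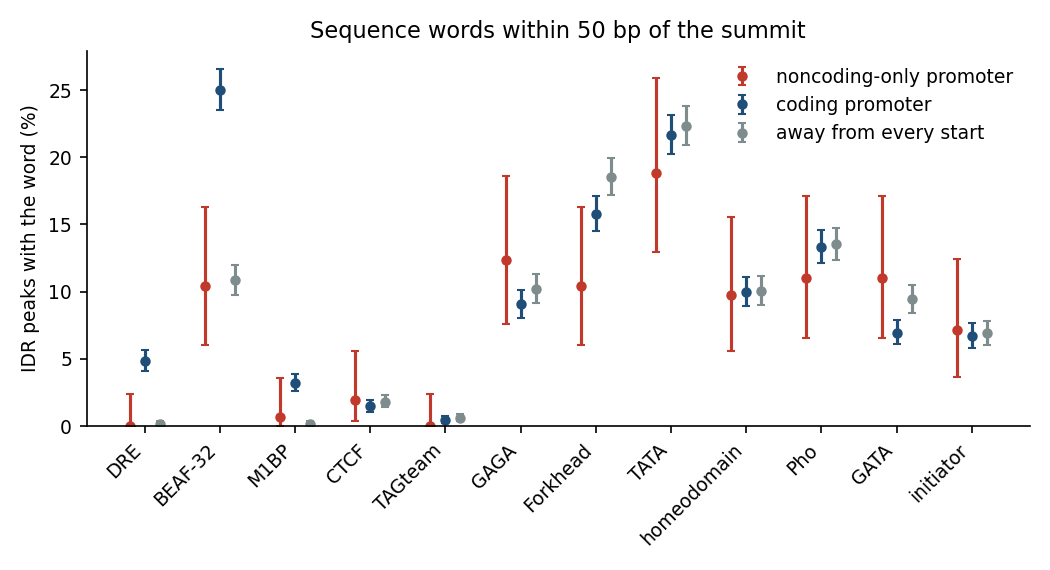
Share of IDR peaks with each of 12 words within 50 bp of the summit (%, y axis; words on the x axis) for noncoding-only promoters, coding promoters and peaks away from every start, with exact 95% binomial intervals. The BEAF-32 word is in 10.4% of noncoding-only and 25.0% of coding promoter IDR peaks, and DRE is in none of the noncoding-only ones.

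The GC content of the 101 bp around the summit was 34.5% on average in IDR members and 39.9% in the other members. IDR peaks at coding promoters (35.5%) and away from every start (33.9%) were low as well, so the members did not stand apart in base composition. Its part in the counts of words was not tested.

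The limits of the rule cut through a continuous range of distances. The members nearest to the 500 bp limit, at 499 bp from lncRNA:CR44682, lncRNA:CR45531 and lncRNA:CR44667, ranked 4279, 4513 and 8608, and the peaks just outside, at 501 to 503 bp, ranked 29034, 7367 and 12137. Members just beyond 500 bp of a coding start ranked 26027, 9962 and 19310, and peaks just within it 25068, 25652 and 5048.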

How the data were processed

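The authors' deposited peak lists were analysed: 1 per replicate, 1 for the pooled replicates and 1 thresholded by IDR. Per the README listings, positions are on dm6. The sources used here do not name the aligner or the caller. In the authors' narrowPeak files the signal is the caller's value for a peak, and −log10 of the q-value, deposited beside it, reached its maximum of 4.16 in 172 members and so was not used to rank them. Signal was ranked only within a list, and read depth is unknown.

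Summits were placed against transcript starts of Ensembl release 115 (BDGP6.54, the dm6 assembly), with a microRNA entry named by its hairpin, 5 snoRNA-named ncRNA genes counted as snoRNA and only the 6 chromosome arms used. Sequence came from RefSeq's copy of release 6. Python 3.11.15, numpy 2.4.6, pandas 2.3.3 and scipy 1.17.1 were used, and the interval code was tested on simulated data. Binomial intervals are exact at 95%, and a count of 0 was given a limit of 3 counts.

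The genes named were the 20 strongest members, the strongest of each class and over 5000 bp from coding starts, IDR members at known noncoding RNAs, members at the limits, genes with most peaks and the strongest matched in no replicate. The members and lists were chosen with earlier results of these data known. Replicates were compared by sign-flip tests. Alternatives covered both distances, overlap, biotype, IDR depth and each replicate left out. No replicates held identical peaks (0 shared entries).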

Additional observations from a re-analysis of the deposited data

How the results depend on the processing

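Windows of 250 and 1000 bp around the noncoding start changed the share of pooled peaks that are members to 1.33 and 4.61%. The share of noncoding genes with an IDR member became 3.40 and 9.25%. At 250 bp the IDR share of members was 23.1% and their median rank 15120.5. At 1000 bp the ncRNA minus pseudogene difference reversed to -0.763 points, and the cause was not tested. Excluding 1000 or 2000 bp around coding starts left 2.15 and 1.60% of peaks as members, and at 2000 bp the ncRNA minus pseudogene difference was 21.4 points. With the ncRNA biotype alone, 6.41% of genes had an IDR member. In the stronger part of the IDR list, the top 3229, the IDR share of members was 11.1%, coding promoters exceeded it by 7.92 points and 3.02% of noncoding genes had a summit, each lower by construction. Matching in all 3 lists was 55.8% with 1 bp of overlap (53.5% of all peaks) and 10.6% within the strongest peaks of each list (9.54%).

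Each replicate was left out in turn, with an IDR peak kept if matched in both others. The IDR share of members was then 16.0 to 16.1%, and noncoding genes stood at 4.40 to 4.47%. This filter only removes IDR peaks, so both shares could only fall, from 20.7 and 5.70%. No share of all pooled peaks under the same filter is given, so the falls have no background beside them. The coding promoter excess was 10.3 to 14.0 points and the ncRNA minus pseudogene difference 9.94 to 16.5 points. A match in both others was found for 44.0 to 53.2% of members, a share that could only rise with fewer lists to match. In the replicate lists the excess of coding promoters ran from 13.9 to 17.3 points, and that of noncoding-only promoters over peaks away from every start, a comparison chosen after seeing the data, from 5.61 to 6.85. The member share and median rank without a replicate were not run, since the pooled list cannot be remade. No fit with a replicate block between groups could be made, since the samples form 1 group. The classes of peaks were compared within each replicate.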
